A study of Homo sapiens with 12 samples.

Results

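The genes described are 10 chemokine ligands named by symbol, CXCL1, CXCL2, CXCL3, CXCL5, CXCL8, CXCL10, CXCL11, CXCL16, CCL5 and CCL20, out of 46 chemokine ligand genes and 58288 genes in all. They were chosen to set NF-kB type against interferon type chemokines, and not for a value in a single comparison. Earlier results of these data were known at the choice, so the contrast between the types is not independent evidence. RNA-Seq was done in FaDu cells, a human head and neck squamous cell carcinoma (HNSCC) line, in 4 groups with 3 libraries each. STING WT cells carried Cas9 and a non-targeting gRNA (NT2), and STING KO cells (A63) carried Cas9 and a gRNA against TMEM173, the gene that encodes STING. Each line was either left at 0 Gy or irradiated (RT) with 2 Gy on each of 4 days. Cas9 (with a blasticidin marker) and the gRNA (with a puromycin marker) were brought in by lentivirus in both lines, so these are shared by every group. Each genotype is 1 line made with 1 gRNA, and whether it is a clone or a pool is not given in the sources used here, nor is the time between the last fraction and RNA collection. Nothing says that the 3 libraries of a group came from separate cultures, so the p-values measure the spread between libraries, which may be technical. RNA was taken from whole cultures, so fewer expressing cells and less RNA per cell cannot be told apart.

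Chemokines are small secreted proteins that attract leukocytes through G protein-coupled receptors. CXCL1, CXCL2, CXCL3, CXCL5 and CXCL8 bind CXCR2 and draw in neutrophils, and CCL20 binds CCR6. The genes of these 6 ligands, grouped here as NF-kB type, are classic targets of NF-kB downstream of interleukin-1 and tumour necrosis factor. CXCL10 and CXCL11 bind CXCR3 on activated T cells, CCL5 attracts T cells and monocytes, and all 3 genes, grouped here as interferon type, respond to the IRF factors and to interferon. CXCL16, the ligand of CXCR6, is made as a transmembrane protein and was placed in neither group. STING, an adaptor of the endoplasmic reticulum that is switched on by cyclic dinucleotides made in response to cytosolic DNA, activates TBK1 and IRF3, which induce type I interferon, and can also activate NF-kB.

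The ligands lie in a few clusters of the genome (GRCh38, GENCODE 29). On chromosome 4, CXCL8 lies at chr4:73740506-73743716 and CXCL1 at chr4:73869393-73871242, both on the plus strand. CXCL5 at chr4:73995642-73998779, CXCL3 at chr4:74036589-74038807 and CXCL2 at chr4:74097035-74099293 follow on the minus strand. CXCL10 at chr4:76021117-76023497 and CXCL11 at chr4:76033682-76041415 lie 1921823 bases beyond CXCL2 and 10184 bases from each other, also on the minus strand. CCL20 is at chr2:227805739-227817564 on the plus strand, and CCL5 at chr17:35871491-35880793 and CXCL16 at chr17:4733526-4739922 are on the minus strand. CXCL10 and CXCL11 thus share a chromosome with the CXCR2 ligands while belonging to the other type.

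The bases before the start of transcription were searched for motifs. Of the interferon type only CXCL10 and CXCL11 could be searched, so whether motifs separate the types could not be judged. Promoters came from RefSeq (GRCh38.p14), which held 8 of the 10 genes. CCL5 and CXCL16 were not among them. Both strands of the 250 bases before each start were searched for 3 motifs. These were the kappa B motif of NF-kB (GGGRNWYYCC), the interferon-stimulated response element (ISRE, GAAANNGAAA) and the AP-1 motif (TGANTCA). N is any base, R is A or G, W is A or T, and Y is C or T. Of 27305 promoters, 5.05% held a kappa B match, 3.07% an ISRE match and 6.6% an AP-1 match. The first set below shows the kappa B match of the NF-kB type genes in capitals, 5′ to 3′ on the strand of the gene, with CXCL1 in full and 30 bases for the rest. In the 4 CXC genes of this set the match on the plus strand overlaps a match on the minus strand, shifted by 1 base, and the capitals cover both, whereas in CCL20 the match is on the strand opposite to the gene.
CXCL1, chr4:73869143-73869392, plus strand: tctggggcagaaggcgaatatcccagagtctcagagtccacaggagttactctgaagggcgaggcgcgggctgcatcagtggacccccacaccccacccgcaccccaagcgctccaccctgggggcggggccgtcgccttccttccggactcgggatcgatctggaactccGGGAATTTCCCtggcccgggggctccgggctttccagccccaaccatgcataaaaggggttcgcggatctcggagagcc
CXCL2, chr4:74099255-74099284, minus strand: tctggagctccGGGAATTTCCCtggcccgg
CXCL3, chr4:74038750-74038779, minus strand: tctggagctccGGGAATTTCCCtggcccgg
CXCL5, chr4:73998750-73998779, minus strand: ccatgagttcaGGGAATTTCCCcagcatcc
CCL20, chr2:227813753-227813782, plus strand: tgatcaatggGGAAAACCCCatgtggcaac
The windows of CXCL2 and CXCL3 are the same 30 letters. The stretches shown for CXCL2, CXCL3 and CXCL5, and that of CXCL11 in the next set, lie before the RefSeq start but inside an exon of a GENCODE transcript that starts further upstream.

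The second set shows the gene that radiation moved in both lines and the interferon type genes. In CXCL8 the capitals mark the AP-1 match, which is read on both strands, 137 to 131 bases before the start. The kappa B letters searched have no match in its 250 bases, of which 250 to 101 bases before the start are shown. A site that departs from these letters would be missed, so this does not show that CXCL8 lacks a kappa B site. In CXCL10 the capitals mark, in order, the ISRE match (221 to 212 bases before the start) and 2 kappa B matches. In CXCL11 they mark the AP-1 match and the kappa B match.
CXCL8, chr4:73740319-73740468, plus strand: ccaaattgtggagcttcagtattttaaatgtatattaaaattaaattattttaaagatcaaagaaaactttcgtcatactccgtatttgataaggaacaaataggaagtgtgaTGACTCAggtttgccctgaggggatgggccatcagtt
CXCL10, chr4:76023498-76023747, minus strand: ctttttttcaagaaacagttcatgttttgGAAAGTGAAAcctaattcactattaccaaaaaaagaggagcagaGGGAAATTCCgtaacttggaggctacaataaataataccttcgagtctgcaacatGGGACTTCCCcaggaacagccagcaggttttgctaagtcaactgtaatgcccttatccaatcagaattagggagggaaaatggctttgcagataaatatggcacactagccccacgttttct
CXCL11, chr4:76036133-76036162, minus strand: gtgcaTGACTCAaagaGGGAAATTCCtgtg
CXCL10 was the only gene among the 8 with an ISRE match, and 7 of the 8 had a kappa B match, the interferon type genes CXCL10 and CXCL11 included. A match of letters does not show that a factor binds there.

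TMEM173 was measured first as a check of the genotype. Its level in transcripts per 1000000 (TPM, a scale per transcript length) were 21.7, 23.5 and 21.1 in unirradiated WT libraries and 5.18, 5.29 and 6.96 in unirradiated KO libraries, and after RT 26.1, 21.4 and 21.7 against 6.35, 7.41 and 7.08. KO was lower in every library of both arms, by 3.80-fold and 3.32-fold of means (limma adjusted p = 1.16e-05 and 2.00e-05). Each library sums to 1000000 TPM, and TPM keeps no depth. All 9 squamous epithelial markers were at or above 1 TPM in every library, and PTPRC and CD3E, which mark leukocytes and T cells, were under 1 in every library. Of 6 leukocyte markers 4 were under 1 throughout, while CD14 (2.62 to 4.35 TPM) and CD68 (14.7 to 31.1) were above 1 in all 12 libraries, and so were VWF and CDH5 of 3 endothelial and COL1A1 of 5 fibroblast markers. The leukocyte markers summed to 18.9 to 25.2 TPM in WT and 18.9 to 28.4 in KO libraries at 0 Gy, and to 27.9 to 34.2 and 20.6 to 28.5 after RT, and the part of such cells or genes in the results was not tested. WT replicate 3 had the lowest value of its group for 7 of the 10 chemokines, so the differences of CXCL8, CXCL1, CCL5 and CXCL11 that rest on the unirradiated WT group are also given without it.

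Chemokine mRNA in these cells came mostly from CXCL16, CXCL8 and CXCL1, with a CCL5 component that was present in WT and close to absent in KO. The 10 ligands made up 91.2% to 94.2% of the TPM summed over all 46 ligand genes. NF-kB type genes summed to 33.7 ± 6.74 TPM in unirradiated WT cells (SD, n = 3), 43.6 ± 5.48 in KO without RT, and after RT 61.4 ± 3.29 in WT and 61.4 ± 6.25 in KO. Interferon type genes summed to 9.55 ± 2.67, 0.183 ± 0.0976, 12.5 ± 2.64 and 0.556 ± 0.192 TPM in the same order. As a share of all ligand TPM the interferon type took 12.6% in unirradiated WT and 11.4% in irradiated WT cells, against 0.247% and 0.606% in KO cells. The ranges of the NF-kB type sum overlapped between genotypes in both arms, at 0 Gy only narrowly (WT up to 38.9 TPM, KO from 38.7). Those of the interferon type sum were far apart in both arms. Most of the interferon type sum was CCL5 (8.30 of 9.55 TPM in unirradiated WT), so this contrast is largely that of 1 gene.

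**Figure D1:**
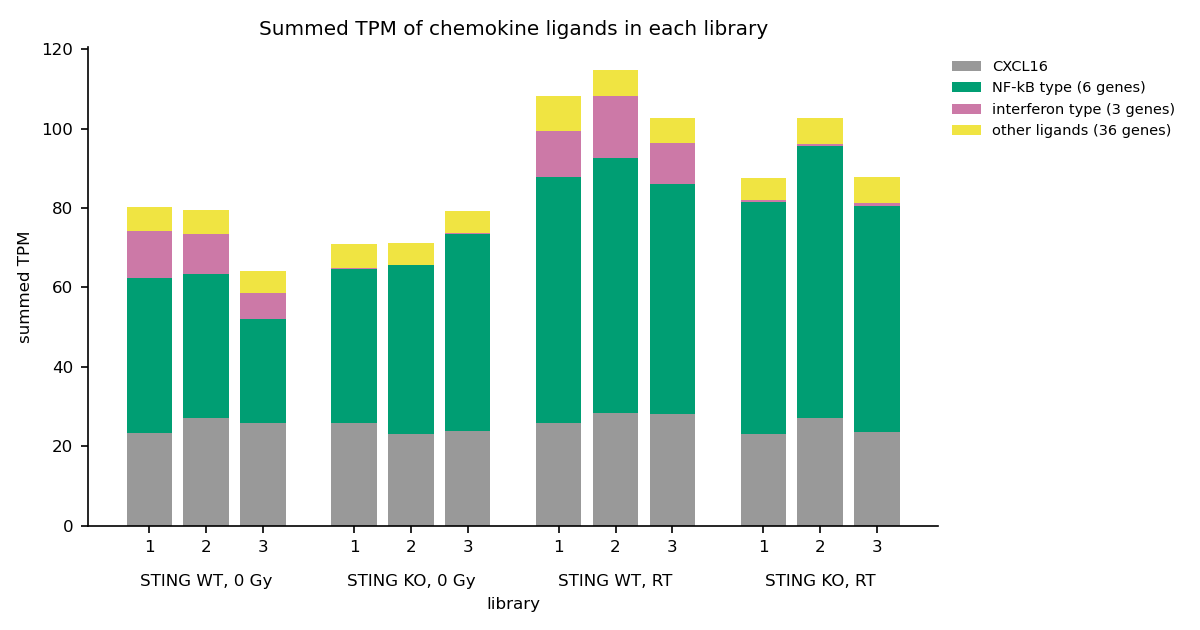
Summed TPM (y axis) of chemokine ligand genes in each of the 12 libraries (x axis, replicates 1 to 3 of each group), stacked as CXCL16, the 6 NF-kB type genes, the 3 interferon type genes and 36 other ligands. The interferon type layer spans 6.60 to 15.4 TPM in WT libraries and 0.0716 to 0.763 in KO libraries, and the NF-kB type layer is taller in every irradiated library than in any unirradiated library.

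The order of levels within a group changed with both factors. In unirradiated WT cells CXCL16 was highest at 25.5 TPM, followed by CXCL8 (14.4) and CXCL1 (13.8), whose library ranges overlapped, and then by CCL5 (8.30) and CXCL2 (3.18). CCL20, CXCL3, CXCL10 and CXCL11 came next at 1.42, 0.934, 0.751 and 0.502 TPM, and each overlapped its neighbour. In unirradiated KO cells CXCL16 (24.3) stayed first, CXCL1 (19.2) and CXCL8 (18.7) overlapped, and CCL5 dropped behind CXCL3 to 0.138 TPM. After RT CXCL8 was the most abundant of the 10 in both lines, at 34.0 TPM in WT and 31.5 in KO cells, and its libraries lay above all those of CXCL16.

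**Figure D2:**
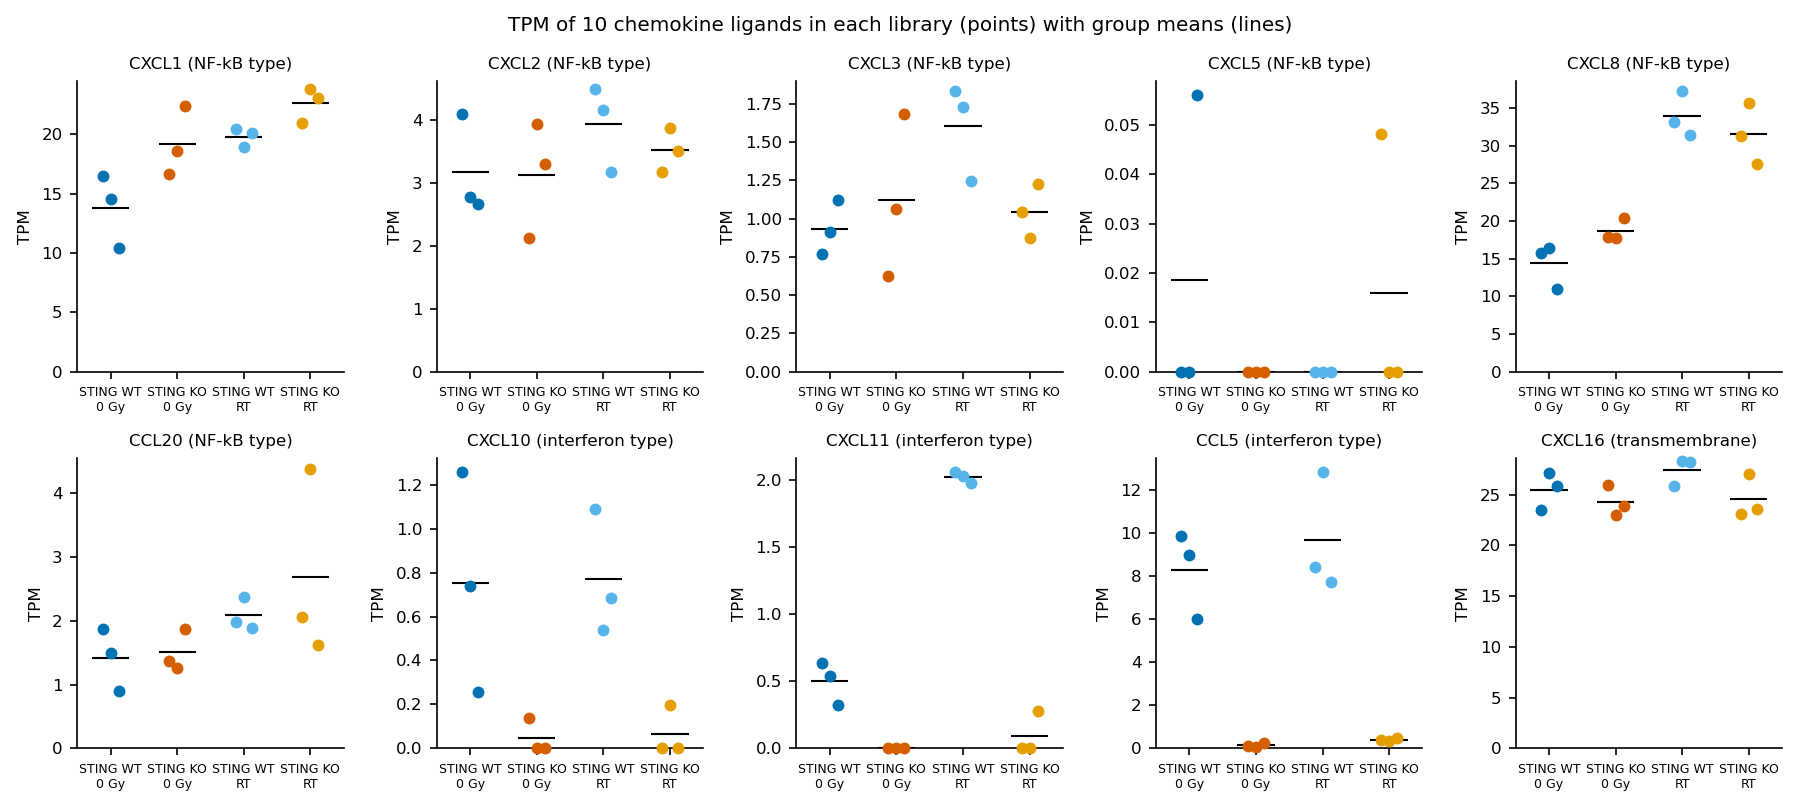
TPM (y axis, from 0, own scale in each panel) of the 10 chemokines in the 3 libraries of each group (x axis); points are libraries and lines are group means. CXCL8 is higher after RT in both lines, CCL5 is near 0 in all 6 KO libraries, CXCL11 reaches 2 TPM only in irradiated WT libraries (1.98 to 2.06), and CXCL5 never exceeds 0.0560.

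CXCL8, the main neutrophil attractant of human epithelium, rose with radiation in both lines and did not pass the test for genotype in either arm. Its TPM was 15.8, 16.4 and 10.99 in unirradiated WT libraries and 33.2, 37.2 and 31.5 in irradiated WT libraries. In KO cells it was 17.9, 17.7 and 20.3 before and 31.3, 35.7 and 27.6 after RT. Every irradiated library was above every unirradiated library of either line. The rise was 2.36-fold of means in WT, or 1.20 on the log2(TPM + 1) scale (SE 0.14, limma adjusted p = 0.00158), and 1.69-fold in KO, or 0.72 (SE 0.14, limma adjusted p = 0.0231). Both arms share 1 estimate of spread, and the scale used understates changes of genes with low TPM. The rise in WT was 1.03 without WT replicate 3 and kept its call in all 20 alternative fits. The rise in KO lost its call when any of 5 libraries was left out (KO replicates 1, 2 or 3, or irradiated KO replicates 1 or 2), with limma adjusted p up to 0.0824. The genotype differences were 0.37 at 0 Gy (adjusted p = 0.28; 0.20 without WT replicate 3, in limma) and -0.11 after RT (adjusted p = 0.75).

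CXCL1 was the NF-kB type gene closest to CXCL8 in level and had no call in any comparison. Its TPM was 16.4, 14.5 and 10.4 in unirradiated WT, 16.7, 18.5 and 22.3 in unirradiated KO, 20.4, 18.9 and 20.1 in irradiated WT and 20.9, 23.8 and 23.1 in irradiated KO libraries. KO libraries lay above WT libraries in both arms, narrowly in each case, and irradiated WT libraries lay above unirradiated WT libraries. The difference KO minus WT at 0 Gy was 0.46 on the log2(TPM + 1) scale (SE 0.15, limma adjusted p = 0.18) and the difference RT minus 0 Gy in WT was 0.51 (SE 0.15, adjusted p = 0.0918). Both became smaller without WT replicate 3, at 0.29 and 0.34, which divides each by more than 1.5. The remaining differences were 0.18 between genotypes after RT and 0.23 for RT in KO cells, with adjusted p of 0.58 and 0.45 (limma).

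CXCL2 and CXCL3, close paralogs of CXCL1 that bind the same receptor, were low and variable. CXCL2 TPM was 4.09, 2.77 and 2.67 in unirradiated WT, 2.12, 3.94 and 3.29 in unirradiated KO, 4.49, 4.16 and 3.17 in irradiated WT and 3.17, 3.87 and 3.51 in irradiated KO libraries. These values overlapped in every comparison, and the limma adjusted p-values ran from 0.55 to 0.96. CXCL3 TPM was 0.771, 0.910 and 1.12 in unirradiated WT, 0.625, 1.06 and 1.68 in unirradiated KO, 1.83, 1.73 and 1.25 in irradiated WT and 1.04, 0.870 and 1.22 in irradiated KO libraries. Irradiated WT libraries were the highest group for CXCL3, above both unirradiated WT and irradiated KO libraries, yet with limma adjusted p of 0.25 and 0.37. Transcripts of CXCL2 and CXCL3 share reads that the authors' quantification may split: 5% of the 100-base words of CXCL2 and 3.27% of those of CXCL3 are identical between them, against 0% for CXCL1.

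CCL20, which attracts CCR6-bearing dendritic cells and Th17 cells, ranged from 0.895 to 4.38 TPM. It was 1.88, 1.49 and 0.895 in unirradiated WT, 1.38, 1.27 and 1.87 in unirradiated KO, 1.99, 2.38 and 1.89 in irradiated WT and 2.05, 4.38 and 1.62 in irradiated KO libraries. Irradiated WT libraries were just above unirradiated WT libraries, and the highest value came from irradiated KO replicate 2, far from the other 2 of its group. The differences RT minus 0 Gy were 0.37 in WT and 0.49 in KO on the log2(TPM + 1) scale (SE 0.25 each, limma adjusted p = 0.50 and 0.34).

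CXCL5, another CXCR2 ligand with the same kappa B letters before its start, was listed at 0 in 10 of 12 libraries. It was listed at 0.0560 TPM in WT replicate 3 and at 0.0481 in irradiated KO replicate 1. It was too low to judge in all comparisons.

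CCL5, a T cell and monocyte attractant also known as RANTES, showed the largest genotype difference of the 10. Its TPM was 9.90, 8.97 and 6.02 in unirradiated WT libraries and 0.116, 0.0716 and 0.226 in unirradiated KO libraries. After RT the WT values were 8.45, 12.9 and 7.71, and those of KO 0.385, 0.325 and 0.486. All 6 KO libraries were under 0.5 TPM and all 6 WT libraries above 6, with no overlap in either arm. CCL5 was lower in KO by 60.2-fold of means at 0 Gy and 24.3-fold after RT, which on the log2(TPM + 1) scale were -3.01 and -2.90 (SE 0.20 each, limma adjusted p = 1.41e-05 and 1.50e-05). With a pseudocount of 0.1 these differences were -5.16 and -4.27, since the KO values lie below the pseudocount of 1. CCL5 reached 1 TPM only in the 6 WT libraries, so it was tested only through the genotype where it was high. The difference at 0 Gy was -3.20 without WT replicate 3. Radiation gave no call for CCL5 in WT (0.19, SE 0.20, limma adjusted p = 0.67), where the groups overlapped. In KO cells the irradiated libraries were all above the unirradiated ones, but both means were under 1 TPM (0.138 and 0.399), which is too low to judge. Transcripts of CCL5 share 6.29% of their 100-base words with other genes, and an antisense gene that overlaps it, AC015849.1, was listed at 0 to 1.31 TPM. The strand setting is not given in the sources used here, so reads of CCL5 and of this gene may not have been told apart, which at 0.0716 to 0.486 TPM touches the KO values.

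CXCL11, a CXCR3 ligand, was the only interferon type gene with a radiation call, which came in WT cells. In KO cells both means of CXCL11 were under 1 TPM (0 before and 0.0925 after RT), too low to judge a response. Its TPM was 0.640, 0.541 and 0.325 in unirradiated WT libraries and 2.06, 2.04 and 1.98 in irradiated WT libraries. In KO it was listed at 0 in all 3 unirradiated libraries and at 0, 0 and 0.277 in irradiated libraries. The irradiated WT group stood above all other libraries, and these 3 libraries alone brought the gene past the filter of 1 TPM in 3 libraries, so that it was tested only because it was high there. The rise with RT in WT was 4.04-fold of means, or 1.02 on the log2(TPM + 1) scale (SE 0.14, limma adjusted p = 0.00313). It was 0.93 without WT replicate 3 (limma adjusted p = 0.0127), and with a pseudocount of 0.1 the difference was 1.86 and lost its call (adjusted p = 0.12, limma). After RT, KO was lower than WT by 21.9-fold of means, a difference of -1.48 (SE 0.14, limma adjusted p = 1.50e-04), or -3.77 with a pseudocount of 0.1. At 0 Gy both means were under 1 TPM (0.502 and 0), so this comparison was too low to judge, although no KO library reached a WT value (limma adjusted p = 0.0706, or 0.0446 without irradiated KO replicate 3).

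CXCL10, its neighbour and fellow CXCR3 ligand, stayed around 1 TPM or less. It was 1.26, 0.739 and 0.256 TPM in unirradiated WT, 0.136, 0 and 0 in unirradiated KO, 1.09, 0.539 and 0.684 in irradiated WT and 0, 0.195 and 0 in irradiated KO libraries. WT libraries were above KO libraries in both arms, and the WT groups overlapped before and after RT. All 4 group means were under 1 TPM and the gene did not pass the filter, so it was too low to judge in all comparisons. Without the filter its genotype differences had limma adjusted p of 0.22 at 0 Gy and 0.13 after RT. Both CXCL10 and CXCL11 overlap ART3 on the other strand, which was listed at 0 in every library, and CXCL11 also overlaps the processed pseudogene AC112719.1.

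CXCL16, made by epithelial cells and bound by CXCR6 on T and NKT cells, had no call and the smallest SE of the 8 tested ligands. Its TPM was 23.5, 27.1 and 25.8 in unirradiated WT, 25.9, 23.0 and 23.9 in unirradiated KO, 25.9, 28.3 and 28.2 in irradiated WT and 23.0, 27.1 and 23.5 in irradiated KO libraries. The groups overlapped in each comparison. Differences lay between -0.16 and 0.11 on the log2(TPM + 1) scale, with an SE of 0.080 and limma adjusted p of 0.34 or more. The gene overlaps MED11 on the opposite strand, which was listed at 19.4 to 26.1 TPM. With the strand setting not given, reads of CXCL16 and MED11 may not have been told apart. The part of MED11 in the CXCL16 values was not tested.

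**Figure D3:**
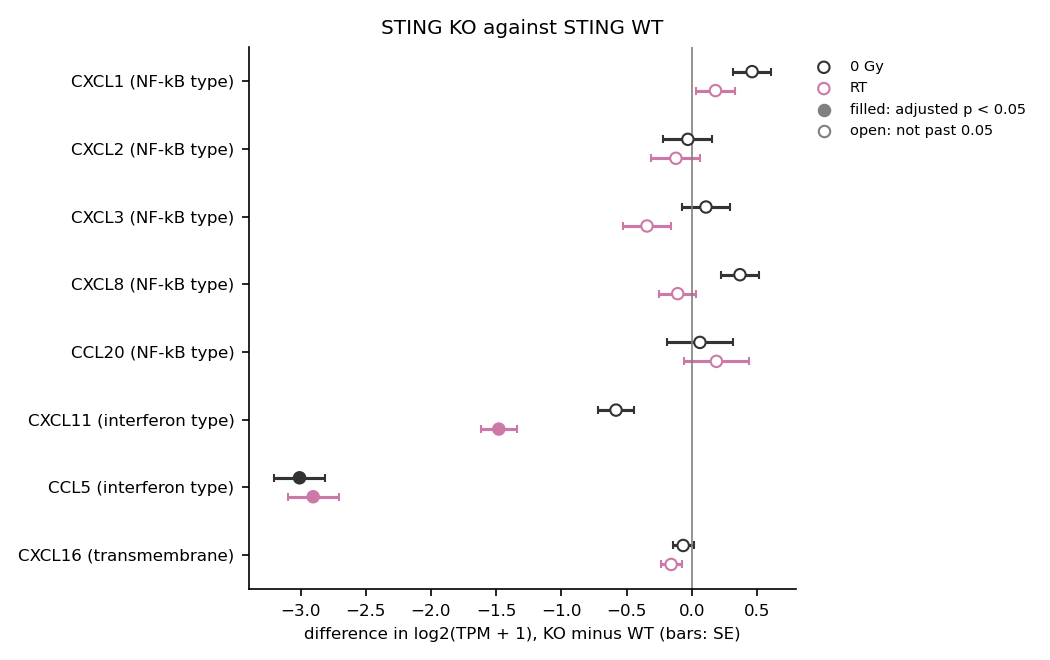
Difference KO minus WT in log2(TPM + 1) (x axis, bars are SE from limma) for the 8 tested chemokines (y axis), at 0 Gy and after RT; filled points passed an adjusted p of 0.05. CCL5 lies at -3.01 and -2.90 and CXCL11 at -1.48 after RT, while the 5 NF-kB type genes lie between -0.34 and 0.46 with no call.

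Counted over the family, 8 of the 10 ligands passed the filter and were tested among 15973 genes. At 0 Gy 1 ligand was lower in KO (CCL5) and 0 were higher, against 1.26% of all tested genes called lower and 0.463% called higher. After RT 2 were lower in KO (CCL5 and CXCL11) and 0 were higher, against 2.66% and 0.927% of all tested genes. Both genes passed the filter only through WT libraries, where they were high, so nothing is read from these counts of lower ligands. None of the 5 tested NF-kB type ligands was called for genotype by limma in either arm. Unadjusted limma p was under 0.05 for 2 of them at 0 Gy (CXCL1 and CXCL8, both higher in KO) and 0 after RT. Among all 15973 tested genes such a p was found for 2292 at 0 Gy and 2855 after RT. The median genotype difference of these 5 was 0.11 at 0 Gy and -0.11 after RT, beside medians of -0.021 and -0.017 over all tested genes.

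Library values that did not overlap gave a wider count. At 0 Gy CXCL1 and CXCL8 were higher in every KO library (8.51% of all tested genes behaved so), and of the tested ligands CXCL11 and CCL5 were lower (12.1%). After RT CXCL1 was higher (9.62%), and CXCL3, CXCL11 and CCL5 were lower (14.5%). CXCL10, which was not tested, was also lower in every KO library of both arms. With 3 libraries against 3 an exact permutation test cannot give a two-sided p below 0.1, so none of these separations can pass 0.05 on its own.

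For radiation, 2 ligands rose in WT (CXCL8 and CXCL11) and 1 in KO (CXCL8), and 0 fell, against 2.24% and 2% of all tested genes called higher and 1.5% and 1.7% called lower. CXCL11 passed the filter only through the irradiated WT libraries, so its call adds nothing to the count. The 5 tested NF-kB type ligands had positive differences in 5 of 5 cases in WT and 4 of 5 in KO, with medians of 0.42 and 0.23 beside 0.017 and 0.019 over all tested genes. Irradiated WT libraries did not overlap unirradiated ones for CXCL1, CXCL3, CXCL8, CCL20 and CXCL11 (14.7% of all tested genes were higher in this way), and irradiated KO libraries did not for CXCL8 and CCL5 (13.7%). The genotype and radiation comparisons share libraries, so a low value in an unirradiated WT library enters both.

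**Figure D4:**
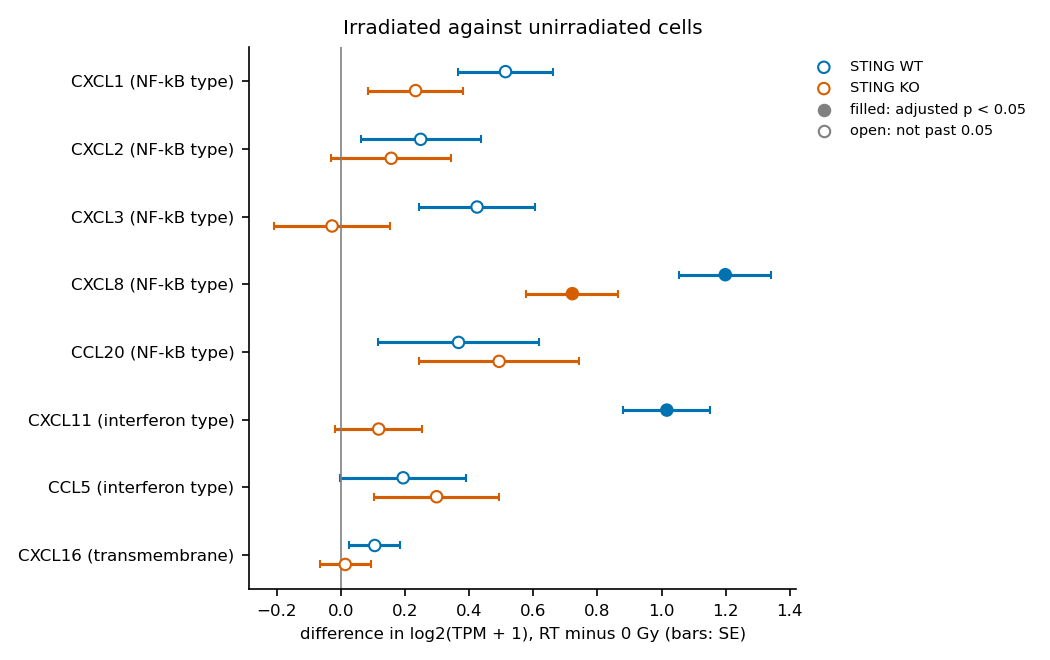
Difference RT minus 0 Gy in log2(TPM + 1) (x axis, bars are SE from limma) for the 8 tested chemokines (y axis) in WT and KO cells; filled points passed an adjusted p of 0.05. CXCL8 lies at 1.20 in WT and 0.72 in KO, and CXCL11 at 1.02 in WT and 0.12 in KO, where it was listed at 0 in 5 of 6 libraries.

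Whether radiation acted differently in the 2 lines was tested by the interaction of genotype and radiation, which passed the threshold in 0.0188% of all tested genes. None of the 8 ligands passed in limma. Of the 8, 2 had an unadjusted limma p under 0.05, beside 1056 of all 15973 tested genes. CXCL11 is among these 2 and passed the filter only through the irradiated WT libraries, so nothing is read from its interaction. For CXCL11 the radiation difference was smaller in KO by 0.90 (SE 0.19, limma adjusted p = 0.42), and for CXCL8 by 0.48 (SE 0.20, limma adjusted p = 0.74). Without WT replicate 3 the CXCL8 interaction was -0.31, and its unadjusted p was then above 0.05. The larger fold change of CXCL8 in WT than in KO was therefore not shown to differ between the lines.

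Too low to judge, with both group means under 1 TPM, were CXCL5 and CXCL10 in all 4 comparisons. The same held for CXCL11 between genotypes at 0 Gy and for radiation in KO, and for CCL5 for radiation in KO. CXCL3 and CCL20, at group means of 0.934 to 1.60 and 1.42 to 2.69 TPM, could be tested and had no call.

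Of 36 other chemokine ligands in the file, 33 did not pass the filter. None of these 33 exceeded 0.912 TPM in any library (CCL27), and 18 were listed at 0 throughout. CXCL9, the remaining CXCR3 ligand, had group means of 0 to 0.0300 TPM. Of the 3 tested, XCL1, CCL22 and CCL26, only CCL22, a CCR4 ligand, was called, lower in KO after RT (as were 2.66% of all tested genes). Its TPM was 0.565, 0.473 and 0.601 in unirradiated WT, 0.131, 0.0670 and 0.128 in unirradiated KO, 1.05, 1.15 and 1.04 in irradiated WT and 0.332, 0.313 and 0.471 in irradiated KO libraries. KO was lower in every library of both arms, and after RT the difference was -0.60 (SE 0.11, limma adjusted p = 0.0137). Like CXCL11, CCL22 passed the filter only through the irradiated WT libraries, and its call was lost in 5 of 19 alternatives (limma adjusted p up to 0.10), among them without irradiated WT replicate 1 or 2 or irradiated KO replicate 2.

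Most receptors of chemokines were under 1 TPM in the cells themselves, with 19 of 23 below the filter. CXCR3 and CXCR6 were listed at 0 in all 12 libraries, and CXCR1 in 11. CCR6 did not exceed 0.0316 TPM. CXCR2, which the NF-kB type CXC ligands bind, was listed at 1.21 to 3.32 TPM and had no call. Of 23 receptors 4 were tested, and only ACKR3, a scavenger of CXCL11 and CXCL12, was called. Of all tested genes 1.26% at 0 Gy and 2.66% after RT were called lower in KO, as ACKR3 was. ACKR3 TPM was 12.3, 13.8 and 10.95 in unirradiated WT against 8.27, 7.22 and 7.27 in KO libraries, and 9.55, 8.83 and 10.2 against 5.69, 6.43 and 6.10 after RT. It was lower in KO by 0.63 and 0.57 on the log2(TPM + 1) scale (limma adjusted p = 0.00585 and 0.00795), with no overlap, and with only the 6 compared libraries in the fit the first lost its call (adjusted p = 0.0779, limma).

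Among 10 enzymes that trim or shed chemokines, 6 were tested. ADAM10 and ADAM17, which release CXCL16 from the membrane, had no call. MMP1, a collagenase that can also cleave chemokines, was higher in KO by 1.97-fold of means at 0 Gy and 1.67-fold after RT, and higher after RT by 2.39-fold in WT and 2.03-fold in KO (limma adjusted p = 0.00106, 0.00289, 2.53e-04 and 7.31e-04). PLAU, the urokinase that activates plasminogen, rose with RT by 1.40-fold in WT and 1.32-fold in KO (limma adjusted p = 3.80e-04 and 0.00122). ANPEP and MMP2 also passed the test for RT in both lines, each with adjusted p between 0.0160 and 0.0498 (limma), and most alternatives removed the ANPEP calls and the MMP2 call in KO. ANPEP reached 1 TPM only in the 6 irradiated libraries, so it was tested only through the arm where it was high. Of the 6 tested enzymes 4 were thus called higher after RT in each line, ANPEP included, beside 2.24% (WT) and 2% (KO) of all tested genes. For genotype 1 (MMP1) was called higher in KO in each arm, beside 0.463% at 0 Gy and 0.927% after RT.

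Of 13 cytokines known to induce these chemokines, 4 were tested. IL1B, a strong activator of NF-kB, was 159, 173 and 162 TPM in unirradiated WT, 136, 127 and 137 in unirradiated KO, 204, 219 and 190.1 in irradiated WT and 176, 174 and 182 in irradiated KO libraries. It rose with RT by 1.24-fold in WT and 1.33-fold in KO (limma adjusted p = 0.0189 and 0.00480) and was lower in KO at 0 Gy by 1.23-fold (adjusted p = 0.0274, limma), and 9 of 20 alternatives lost this last call, among them the removal of any of the 6 compared libraries, and 6 of 20 that for RT in WT, among them the removal of WT replicate 1 or 3 or irradiated WT replicate 1 or 2. IL1A and LTB had adjusted p of 0.0439 and 0.0477 for RT in WT (limma), lost in 15 and 16 of their alternatives. Of the 4 tested cytokines 3 were thus called higher after RT in WT and 1 in KO, beside 2.24% and 2% of all tested genes. At 0 Gy 1 was called lower in KO, beside 1.26%. TNF did not exceed 0.294 TPM and IFNB1 was listed at 0 in every library. IFNL1, a type III interferon, was listed at 0.514 to 2.18 TPM in the 6 WT libraries and at 0 in all 6 KO libraries. It reached 1 TPM in only 2 libraries and was not tested, and at 0 Gy its means (0.780 in WT, 0 in KO) were too low to judge.

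The wider target lists of both pathways were measured beside the ligands. Of 18 NF-kB subunits and feedback genes, all tested, 0 were called for genotype in either arm by limma. In each arm 1 of the 18 had an unadjusted limma p under 0.05, beside 2292 (0 Gy) and 2855 (RT) of all 15973 tested genes. With RT 4 rose (ICAM1, NFKB2, RELB and TNFAIP3) and TNFAIP2 fell in WT, and 3 rose (ICAM1, NFKB2 and TNFAIP3) and TNFAIP2 fell in KO. Of all tested genes 2.24% and 2% were called higher and 1.5% and 1.7% lower in WT and KO. The median radiation difference of the 18 genes was 0.046 in WT and 0.099 in KO. Of 24 interferon-stimulated genes, all tested, 21 were lower in KO at 0 Gy and 23 after RT, beside 1.26% and 2.66% of all tested genes, with medians of -2.34 and -2.92. Of the 24 genes 1 (RSAD2) reached 1 TPM only in WT libraries. CMPK2 and IFI44L reached it outside WT in 1 irradiated KO library each, so they too met the filter of 3 libraries only with WT libraries. The calls of RSAD2, CMPK2 and IFI44L therefore add nothing to the counts of genes lower in KO. With RT 9 rose in WT, beside 2.24% of all tested genes, and none in KO by limma. In KO 4 of the 24 had an unadjusted limma p under 0.05, beside 2896 of all 15973 tested genes, so nothing is read from these 4. The interaction of genotype and radiation was called for 0 of the 24 by limma, so no single gene was shown to respond differently in the 2 lines. It was negative for 23 of the 24, and 14 had an unadjusted limma p under 0.05, beside 1056 of all 15973 tested genes. The interferon list holds genes chosen with earlier results of these samples known, so its direction is not independent evidence.

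The genes most like CXCL8 and CCL5 across the 12 libraries were found by Pearson's r of log2(TPM + 1) over all tested genes. For CXCL8 they were TXNDC9 (r = 0.98), DUSP6 (0.96), PLAU, SPRY4 and SUSD6 (0.95 each), and DUSP6 had group means of 5.36 and 5.96 TPM at 0 Gy and 11.03 and 10.1 after RT in WT and KO. For CCL5 they were HERC5, CMPK2, HERC6, IFIT3 and IFIT2, all with r of 0.99, and HERC5 had means of 77.0 and 1.12 TPM at 0 Gy and 117 and 1.65 after RT. Between members, r was 0.80 for CXCL1 and CXCL8 and 0.84 for CXCL11 and CCL5, but -0.023 for CXCL8 and CCL5. After subtraction of group means r was 0.71, 0.54 and 0.69 for the same pairs. These values describe 12 libraries in which the groups and the library itself are shared by both genes of a pair.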

How the data were processed

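Polyadenylated RNA for 12 FaDu libraries was sequenced as 100 bp paired ends. The authors deposited TPM per gene and library, scaled to 1000000 per library and to nothing between libraries. The submitters' processing notes name HISAT2, StringTie, DESeq2 and hg38. Their roles, versions, annotation and strand setting are not given in the sources used here. Columns were matched to samples by line name (NT2 as the non-targeting gRNA, A63 as the remaining line), treatment and replicate number.

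TPM holds no counts, so limma 3.58.1 (R 4.3.3; lmFit, contrasts.fit, eBayes with trend) was fitted to log2(TPM + 1) with 4 group means and 8 residual degrees of freedom, in place of the count test of the study. All 15973 genes with TPM of at least 1 in 3 libraries were tested and p-values adjusted by Benjamini-Hochberg over them, at 0.05. The script was tested on simulated data. Named were the 10 members, TMEM173, tested ligands, and list genes that passed. Same-numbered libraries did not deviate together, so no block was used. Members and lists were chosen with earlier results of these data known. Alternatives varied the pseudocount, filter, scaling, variance model and libraries. Python 3.11.15 was used for the rest.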

Additional observations from a re-analysis of the deposited data

How the results depend on the processing

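Over 55 chemokine differences and 1049 alternative values, 997 kept direction and side of the threshold, 11 lost a call, 9 gained one and 32 changed direction, 0 of these among the 7 called. The count of members called between genotypes at 0 Gy was 1, and 2 without a filter or without the trend, where CXCL11 was added. A minimum mean TPM of 5 removes CCL5 and CXCL11 from the test, leaving 0 and 0 between genotypes and 1 for RT in WT. For RT in WT the count was 1 with a pseudocount of 0.1. Leaving out 1 library gave counts of 1 to 2 between genotypes at 0 Gy (2 without irradiated KO replicate 3), and 0 to 1 for RT in KO. Same-numbered libraries had residual correlations of at most 0.064, which cannot show whether they share an origin. With a replicate block all member counts were as in the fit without it, and calls over all genes fell from 276 to 211, 573 to 378, 597 to 315 and 590 to 359. TPM holds no depth, so counting error at low TPM is unknown.

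Direction changed only where no call was made, and the causes were not tested. Leaving out 1 library gave, for KO minus WT at 0 Gy, -0.17 to 0.16 for CXCL2, -0.075 to 0.29 for CXCL3 and -0.10 to 0.20 for CCL20. After RT it gave -0.12 to 0.40 for CCL20, -0.037 to 0.21 for XCL1 and -0.040 to 0.27 for CCL26. For RT in WT it gave -0.0097 to 0.33 for CCL5 and -0.041 to 0.16 for XCL1. For RT in KO it gave -0.030 to 0.30 for CXCL2, -0.21 to 0.16 for CXCL3 and -0.056 to 0.059 for CXCL16. For the interaction it gave -0.28 to 0.052 for CXCL2, -0.18 to 0.34 for CCL20, -0.027 to 0.31 for CCL5 and -0.19 to 0.12 for CCL26. Quantile normalization gave 0.018 for CXCL2 (KO minus WT, 0 Gy), -0.0046 for XCL1 (RT in WT) and -0.014 for CXCL16 (RT in KO), where median-of-ratios factors gave -0.015. A pseudocount of 0.1 gave 0.30 for the CCL22 interaction.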
